A study of Mus musculus with 12 samples.

Results

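The genes described here are 10 genes of the mitochondrial cell death pathway and of the p53 axis that feeds into it, out of 22462 genes in the ribosome profiling count table. They were chosen by name and found in the table by their Ensembl identifiers. They are Trp53 and its regulator Mdm2, the anti-apoptotic genes Bcl2, Bcl2l1 (BCL-XL) and Mcl1, the effectors Bax and Bak1, and the BH3-only genes Bbc3 (PUMA), Pmaip1 (NOXA) and Bcl2l11 (BIM). All 10 were in the table and 9 passed the filter on low counts. Bcl2 did not pass and is described by its counts.

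The comparison was of mouse ESCs (embryonic stem cells) with EpiLCs (epiblast-like cells). ESCs were kept in Knockout DMEM with fetal bovine serum, LIF and 2i (the inhibitors PD0325901 and CHIR99021), which hold them in the naive state. EpiLCs came from the same ESCs about 56 hours after LIF and 2i were withdrawn, and stand for a later, formative state of pluripotency. The study used a V6.5 line with miR-290-mCherry and miR-302-GFP reporters for differentiation, so the data describe 1 line. Each cell type gave 3 libraries of ribosome protected fragments (RPF), the mRNA stretches that ribosomes shield from nuclease, and 3 libraries of total RNA, 12 in all.

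As background, cells that receive a death signal commit when BAX and BAK1 open the outer mitochondrial membrane. BCL2, BCL-XL and MCL1 hold BAX and BAK1 back, and BH3-only proteins bind these guardians through a short helix, the BH3 domain, and release the effectors. The transcription factor p53 raises several BH3-only genes and also Mdm2, whose product marks p53 for degradation. Pluripotent cells are known to enter apoptosis readily.

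The libraries held 2681439 to 14655015 counts, the lowest in EpiLC RPF replicate 2, so that 3 counts equalled 0.205 to 1.12 CPM, the unit that scales each library to the same total. The 4 naive markers Zfp42, Esrrb, Klf4 and Tfcp2l1 summed to 1311 to 1469 CPM in ESC total RNA and 41.7 to 80.9 CPM in EpiLC total RNA. The 4 primed markers Dnmt3b, Otx2, Fgf5 and Pou3f1 summed to 109 to 200 CPM and 1132 to 1212 CPM. Both cell labels thus had their defining markers. The shared pluripotency genes Pou5f1 and Sox2 had means of 1584 and 195 CPM in ESC total RNA. In EpiLC total RNA they had 1003 and 28.8 CPM. Among 7 feeder fibroblast markers the sum was 2.00 to 2.35 CPM in ESC and 13.1 to 15.2 CPM in EpiLC total RNA. In RPF it was 6.21 to 6.87 CPM and 33.8 to 40.3 CPM. Mean total RNA rose for Dcn (0.115 to 3.75 CPM), Col1a2 (0.136 to 2.62 CPM) and Col1a1 (1.03 to 4.52 CPM). Thy1 (0.799 to 2.72 CPM) and Col3a1 (0.115 to 0.336 CPM) rose as well, and Lum and Postn were at 0 in both. For 6 primitive endoderm markers the sum in total RNA was 5.13 to 6.97 CPM and 15.4 to 22.5 CPM. Dab2 had means of 1.76 and 13.1 CPM. Gata6 (0.457 and 0.146 CPM) and Sox17 (0.560 and 0.114 CPM) were lower in EpiLCs. Gata4 (1.77 and 2.76 CPM), Pdgfra (1.53 and 2.02 CPM) and Sox7 (0.0867 and 0.193 CPM) were higher there. The 3 neurectoderm markers summed to 9.55 to 14.4 CPM and 19.2 to 22.2 CPM. Pax6 had means of 0.427 and 8.79 CPM and Sox1 of 11.2 and 11.9 CPM, with Olig3 at 0 in both. The 4 mesendoderm markers summed to 9.72 to 11.7 CPM and 5.01 to 7.92 CPM. Among these, Eomes (6.03 and 2.72 CPM) and Gsc (4.29 and 0.741 CPM) were lower in EpiLCs. T (0.329 and 1.81 CPM) and Mixl1 (0.214 and 0.980 CPM) were higher there. The part of such cells in the results below was not tested, and in bulk samples fewer cells of a type cannot be told apart from less RNA per cell.

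The 7 sequences below are shown because the family is defined by this stretch, the core of the BH3 domain. Each is 27 coding bases, 5′ to 3′, from Gencode M21 transcripts on GRCm38, and capitals mark the codons for the fixed leucine and for the pair of small residue and aspartate that follows. The pattern of a leucine, any 3 residues, glycine or alanine, and aspartate occurred once in each of these 7 translated sequences, 2 times in Pmaip1, which is not printed, and 0 times in Trp53 and Mdm2.
Bcl2: CTCcgccgggctGGGGATgacttctct
Bcl2l1: CTGagagaggcaGGCGATgagtttgaa
Mcl1: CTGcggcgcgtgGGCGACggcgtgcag
Bax: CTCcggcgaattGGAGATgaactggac
Bak1: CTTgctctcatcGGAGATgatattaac
Bbc3: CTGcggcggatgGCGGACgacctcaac
Bcl2l11: CTGcggcggatcGGAGACgagttcaac

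Each stretch lay within a single coding exon. They were at chr1:106712575-106712601 in exon 1 of Bcl2, chr2:152829697-152829723 in exon 2 of Bcl2l1 and chr3:95659436-95659462 in exon 1 of Mcl1. Those of the effectors were at chr7:45465997-45466023 in exon 3 of Bax and chr17:27022531-27022557 in exon 4 of Bak1. Those of the BH3-only genes were at chr7:16313773-16313799 in exon 3 of Bbc3 and chr2:128147150-128147176 in exon 3 of Bcl2l11. Mcl1, Bbc3 and Bcl2l11 are on the plus strand and the other 4 on the minus strand. Bbc3 and Bcl2l11 were the most alike of the pairs, with 22 of 27 identical bases, and Bcl2 and Bak1 the least, with 11. Bbc3 was the one gene of the 7 with alanine in place of glycine.

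The first question was how the mRNA of these genes moved between the cell types. At an adjusted p under 0.05 (voom and limma with Benjamini-Hochberg adjustment over 11750 genes), 4 of 9 tested members were higher in EpiLC total RNA, against a background of 34.6% of all genes, and 3 were lower, against 30.7%. With the further limit of a log2 fold change above 1 in size, 3 were higher, against 14.6%, and 0 lower, against 9.70%. In RPF the counts were likewise 4 higher, against 31.1%, and 3 lower, against 28.7%, and with the fold limit 3 higher, against 15.4%, and 0 lower, against 10.6%. The members that passed the fold limit were the 3 BH3-only genes in both assays. The median log2 change over the 9 was 0.13 for total RNA and 0.18 for RPF, beside 0.03 and 0.01 over all genes.

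**Figure D1:**
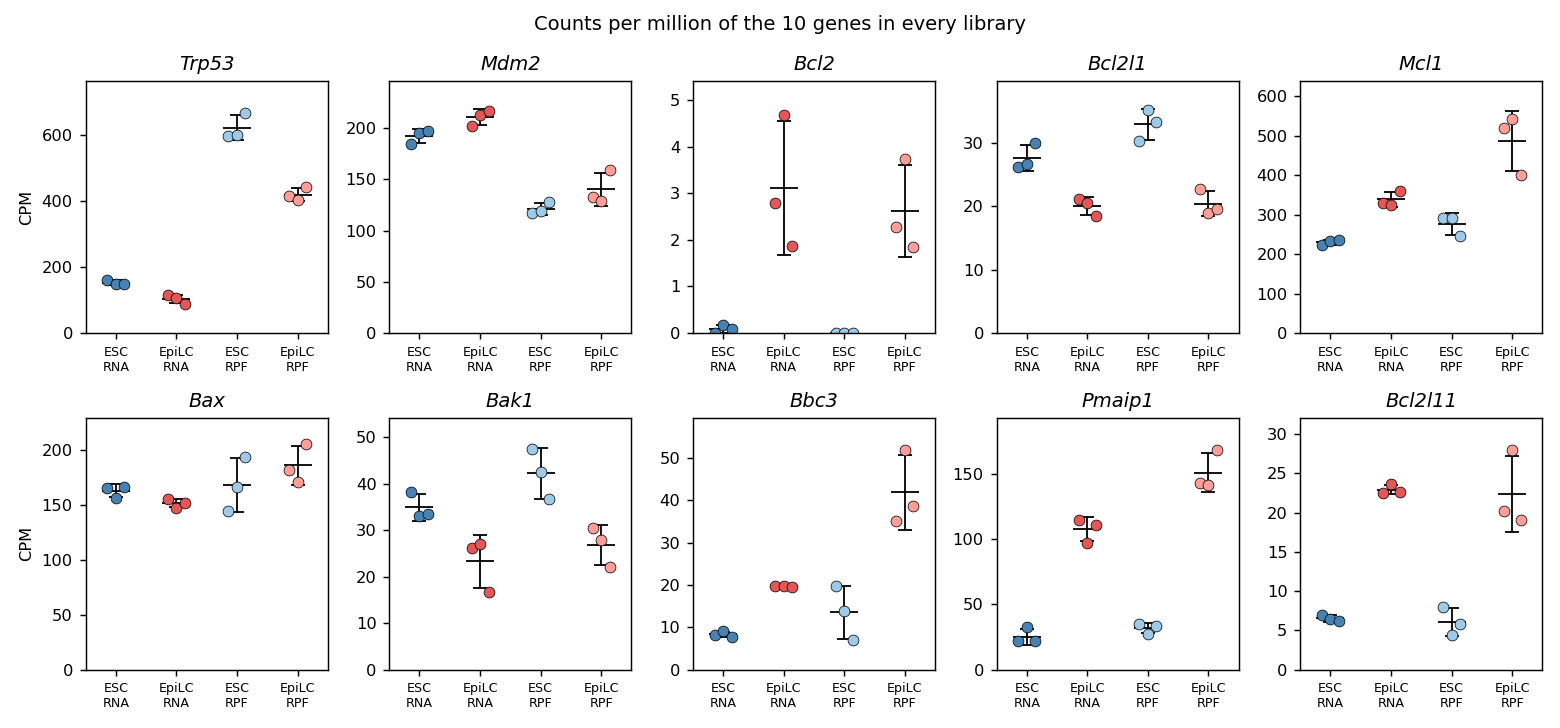
CPM (y axis, from 0) of each gene in the 12 libraries, in 4 groups of 3 (ESC and EpiLC, total RNA and RPF). Points are libraries, bars the mean ± SD. Pmaip1 sat at 21.6 to 32.4 CPM in ESC total RNA and 97.3 to 115 CPM in EpiLC total RNA, and the 3 ESC RPF libraries of Bcl2 were at 0.

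The EpiLC total RNA libraries lay wholly above the ESC libraries for 5 of the 9 tested members, against 36.7% of all genes, and wholly below for 4, against 33.6%. In RPF this held for 5 above, against 33.6%, and 3 below, against 29.5%, with Bax overlapping.

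Trp53 (chr11:69586936-69591431) encodes p53. Its total RNA was 161, 149 and 148 CPM in ESC replicates 1 to 3 and 114, 106 and 88.5 CPM in those of EpiLCs. In RPF the values were 597, 600 and 664 CPM in ESCs and 414, 401 and 441 CPM in EpiLCs. All ESC libraries were above all EpiLC libraries in both assays. Total RNA fell by 0.56 ± 0.08 on the log2 scale (SE, adjusted p = 2.20e-06), or 1.48-fold, and RPF fell by 0.59 ± 0.07 (adjusted p = 1.08e-07). Neither fall reached the fold limit.

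Mdm2 (chr10:117690210-117709735), the ubiquitin ligase that restrains p53, had 185, 196 and 198 CPM in ESC total RNA and 202, 213 and 217 CPM in EpiLC total RNA. In RPF it had 117, 119 and 128 CPM in ESCs and 133, 129 and 159 CPM in EpiLCs. The EpiLC libraries were above the ESC libraries in both assays, by small margins. The log2 differences of 0.13 ± 0.07 (adjusted p = 0.0962) and 0.18 ± 0.09 (adjusted p = 0.0677) did not pass. For RPF the difference passed in 5 alternative fits, among them a correction for GC content (0.25, adjusted p = 0.0103). For total RNA it was at the threshold without replicate 1 of EpiLC total RNA (0.18, adjusted p = 0.050) and passed with the replicate block and GC correction together (0.14, adjusted p = 0.0391).

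Among the guardians, Mcl1 (chr3:95658902-95660823), a short-lived protein that binds BAK1 and NOXA, had the most reads per length of the 3. Its total RNA was 223, 233 and 235 CPM in ESCs and 330, 325 and 361 CPM in EpiLCs. Its RPF was 292, 292 and 245 CPM in ESCs and 520, 543 and 401 CPM in EpiLCs. The groups did not overlap, although the third replicate was the lowest of both RPF groups. Total RNA rose by 0.56 ± 0.08 (1.47-fold, adjusted p = 1.46e-06) and RPF by 0.78 ± 0.09 (1.72-fold, adjusted p = 3.20e-08). The coding sequence of Mcl1 has 64.7% GC, and with a correction for GC content the log2 changes were 0.26 and 0.38, both still past the test.

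Bcl2l1 (chr2:152782145-152829945), whose long isoform BCL-XL binds both effectors, moved the other way. It had 26.3, 26.8 and 30.0 CPM in ESC total RNA and 21.2, 20.5 and 18.5 CPM in EpiLC total RNA. It had 30.4, 35.2 and 33.3 CPM in ESC RPF and 22.7, 19.0 and 19.6 CPM in EpiLC RPF. Every EpiLC library was below every ESC library. Total RNA fell by 0.45 ± 0.11 (1.36-fold, adjusted p = 0.00111) and RPF fell by 0.69 ± 0.15 (1.61-fold, adjusted p = 0.000234). The counts cover all coding exons together, so isoforms such as BCL-XS could not be separated.

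Bcl2 (chr1:106543264-106712835), the founding member of the family, was at or near 0 counts in ESCs. It had 0, 2 and 1 counts in ESC total RNA and 41, 29 and 16 in EpiLC total RNA. It had 0, 0 and 0 counts in ESC RPF and 11, 10 and 10 in EpiLC RPF. No ESC library came near any EpiLC library, and in EpiLCs the level stayed at 1.85 to 4.69 CPM. The 3 ESC against 86 EpiLC counts of total RNA gave a ratio of 35.7, with an exact 95% counting interval of 11.8 to 176. Against a floor of 3 counts over the ESC RPF group, EpiLC RPF was 19.3-fold higher, a value that takes the 31 EpiLC counts as exact. The exact 95% lower limit of the ratio, which also covers the counting error in EpiLCs, was 14.8. These intervals and floors cover counting error only. Without the filter on low counts, voom and limma put Bcl2 past the test in total RNA (log2 change 4.80, adjusted p = 2.96e-07) and RPF (5.20, adjusted p = 9.28e-07), and the sizes depend on the 0.5 added to each count.

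The effectors were not alike. Bak1 (chr17:27020931-27025811), which sits in the outer mitochondrial membrane, had 38.2, 33.0 and 33.5 CPM in ESC total RNA and 26.1, 27.0 and 16.7 CPM in EpiLC total RNA. Its RPF was 47.5, 42.5 and 36.6 CPM in ESCs and 30.6, 28.0 and 22.2 CPM in EpiLCs. The ESC libraries were higher throughout. Total RNA fell by 0.60 ± 0.14 (1.52-fold, adjusted p = 0.000637) and RPF fell by 0.68 ± 0.18 (1.60-fold, adjusted p = 0.00179).

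Bax (chr7:45461862-45466260), which moves from the cytosol to the mitochondrion, had 166, 156 and 167 CPM in ESC total RNA and 155, 147 and 152 CPM in EpiLC total RNA. Its RPF was 145, 166 and 193 CPM in ESCs and 182, 170 and 205 CPM in EpiLCs. Total RNA was slightly lower in EpiLCs without overlap, and the RPF groups overlapped. Neither the log2 difference in total RNA (-0.10 ± 0.08, adjusted p = 0.307) nor that in RPF (0.13 ± 0.09, adjusted p = 0.238) passed. Without replicate 3 of ESC RPF the RPF difference was 0.24 and passed (adjusted p = 0.0262), and without replicate 1 it was -0.03. Of the 534 counted bases of Bax, 181 are shared with the overlapping gene Gm45808 on the same strand, so its counts are uncertain.

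The 3 BH3-only genes rose. Pmaip1, whose product NOXA binds MCL1, had 21.6, 32.4 and 21.9 CPM in ESC total RNA and 115, 97.3 and 111 CPM in EpiLC total RNA. Its RPF was 34.6, 27.2 and 33.2 CPM in ESCs and 143, 141 and 168 CPM in EpiLCs. The lowest EpiLC library stood well above the highest ESC library in each assay. Total RNA rose by 2.13 ± 0.12 (4.38-fold, adjusted p = 5.98e-14) and RPF by 2.21 ± 0.13 (4.61-fold, adjusted p = 3.25e-13), at percentiles 94.3 and 93.6 of all tested genes.

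Bcl2l11 (chr2:128128678-128158329), whose product BIM binds all guardians, had 6.97, 6.45 and 6.18 CPM in ESC total RNA and 22.5, 23.6 and 22.6 CPM in EpiLC total RNA. Its RPF was 7.94, 4.40 and 5.81 CPM in ESCs and 20.2, 28.0 and 19.0 CPM in EpiLCs. The groups were far apart in both assays. Total RNA rose by 1.79 ± 0.16 (3.47-fold, adjusted p = 5.88e-10) and RPF by 1.76 ± 0.22 (3.38-fold, adjusted p = 1.67e-07).

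Bbc3 (chr7:16312186-16317234), whose product PUMA is a main mediator of p53-dependent death, had 8.09, 9.04 and 7.83 CPM in ESC total RNA and 19.9, 19.7 and 19.6 CPM in EpiLC total RNA. Its RPF was 19.7, 13.8 and 7.13 CPM in ESCs and 35.1, 51.8 and 38.6 CPM in EpiLCs. The groups did not overlap, but ESC RPF replicate 3 was far below replicate 1. Total RNA rose by 1.25 ± 0.22 (2.38-fold, adjusted p = 2.70e-05) and RPF by 1.75 ± 0.23 (3.37-fold, adjusted p = 3.56e-07). Without ESC RPF replicate 3 the RPF change was 1.16. At 72.2% its coding sequence is among the richest in GC, a level that 0.273% of tested genes reach, and with a correction for GC content the changes were 0.59 for total RNA (adjusted p = 0.0182) and 0.93 for RPF (adjusted p = 0.000712), under the fold limit.

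**Figure D2:**
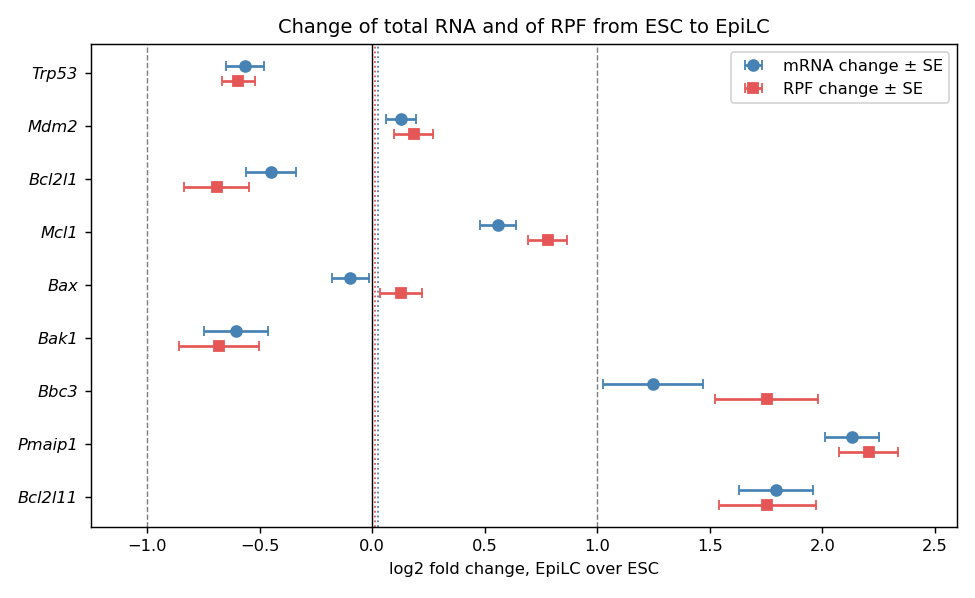
Log2 fold change from ESC to EpiLC (x axis) of total RNA (circles) and RPF (squares) for the 9 tested genes, with SE from voom and limma. Dotted lines mark the medians of all tested genes and dashed lines the fold limit of 1. Pmaip1, Bcl2l11 and Bbc3 lie beyond the limit in both assays, and the largest gap between the changes of 1 gene is 0.50, for Bbc3.

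The second question was whether translation added to these changes. Translational efficiency (TE) is the ratio of RPF to total RNA, and its change is the interaction of assay and cell type. Of the 9 tested members, 0 passed for a TE change, against 1.20% of all genes. The count was 0 as well at an unadjusted p under 0.05, where the smallest p was 0.0735 for Mcl1, and by edgeR, DESeq2 and limma-trend at an adjusted p under 0.05. The largest estimate was that of Bbc3, at 0.50 ± 0.32 (adjusted p = 0.514), and without ESC RPF replicate 3 it was -0.05. Mcl1 had 0.22 ± 0.12, Bax 0.23 ± 0.12 and Bcl2l1 -0.24 ± 0.18. Standard errors of this size do not show that TE was equal in the cell types.

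Within each cell type TE differed widely among the members. Its 0 is set by the scaling of the libraries, so more or less RPF than total RNA is relative to that scaling. The median log2 TE over all genes in ESCs was -0.02 in the reported fit. It was -0.09 with total counts and 0.03 with upper-quartile factors. In ESCs 5 of 9 members had more RPF than total RNA at an adjusted p under 0.05, against 33.0% of all genes, and 1 had less, against 34.5%. In EpiLCs it was again 5, against 31.3%, and 1, against 33.0%. With the fold limit, 1 member was higher in ESCs, against 7.93%, and 2 in EpiLCs, against 9.39%. Leaving out ESC RPF replicate 3 made the former 2, and leaving out EpiLC RPF replicate 2 made the latter 1, since Bbc3 then had 0.97.

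Trp53 had by far the highest TE of the 9. Its log2 TE was 2.10 ± 0.07 in ESCs (4.29-fold, adjusted p = 6.77e-18) and 2.07 ± 0.08 in EpiLCs (4.20-fold, adjusted p = 3.53e-16), at percentiles 99.4 and 99.0 of all tested genes. Every RPF library was above every total RNA library, as the CPM values above show. Mdm2, in contrast, had the lowest TE, at -0.59 ± 0.07 in ESCs (adjusted p = 1.23e-07) and -0.53 ± 0.08 in EpiLCs (adjusted p = 3.36e-06).

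The TE of the other members lay nearer to the middle. Mcl1 had 0.32 ± 0.08 in ESCs and 0.54 ± 0.08 in EpiLCs, and Pmaip1 had 0.45 ± 0.15 and 0.53 ± 0.10, all past the test, although without replicate 1 of ESC total RNA the Pmaip1 value in ESCs was 0.34 and did not pass (adjusted p = 0.0613). Bbc3 had 0.55 ± 0.25 in ESCs (adjusted p = 0.0569) and 1.05 ± 0.19 in EpiLCs (adjusted p = 4.27e-05). With the GC correction these became 0.00 and 0.34 (adjusted p = 0.121), and without ESC RPF replicate 3 the ESC value was 1.13 (adjusted p = 2.98e-05). It also passed without any 1 of the EpiLC RPF libraries (0.58 each), by edgeR (0.74) and by DESeq2 (0.80). The Mcl1 value in ESCs was also lost with the GC correction (0.13, adjusted p = 0.0772). Bcl2l1 (0.32 ± 0.10) and Bak1 (0.32 ± 0.13) passed in ESCs and not in EpiLCs (0.08 ± 0.15 and 0.24 ± 0.19), and Bax passed in EpiLCs (0.34 ± 0.09) and not in ESCs (0.12 ± 0.08). The GC correction ended these 3 calls (0.17 for each), and their TE change did not pass. The Bak1 call in ESCs was also lost without ESC RPF replicate 1 (0.25) and without ESC total RNA replicate 2 (0.28) or 3 (0.29), with limma-trend (0.34), with total counts (0.25) and without the filter on low counts (0.29), and passed in 16 of 24 alternative fits. Bax passed in ESCs without ESC RPF replicate 1 (0.26, adjusted p = 0.00697). Bcl2l11 had -0.02 ± 0.22 and -0.06 ± 0.15.

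**Figure D3:**
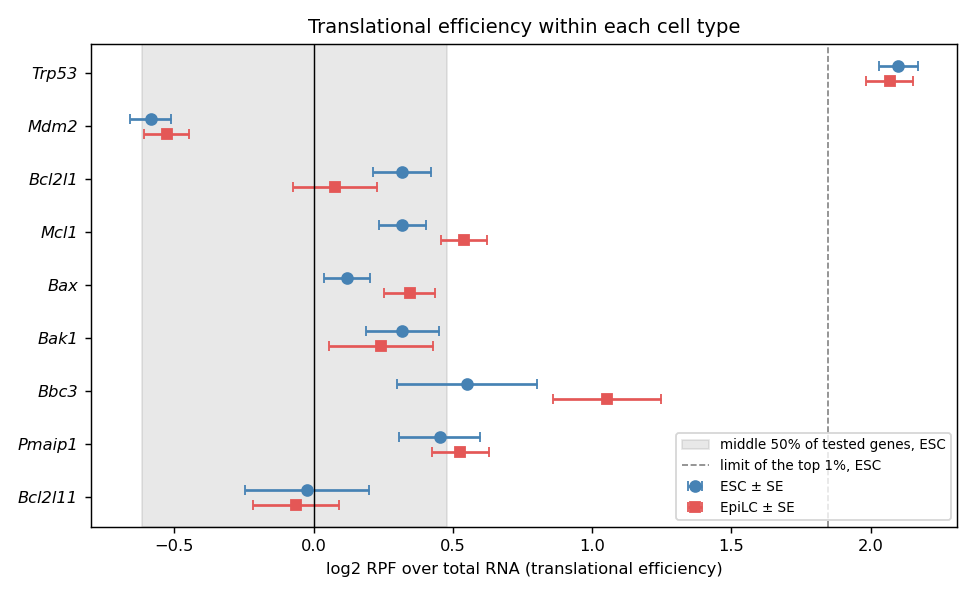
Log2 ratio of RPF to total RNA (x axis) in ESCs (circles) and EpiLCs (squares) for the 9 tested genes, with SE. The grey band holds the middle 50% of all tested genes in ESCs and the dashed line is the limit of their top 1%. Trp53 lies at 2.10 and 2.07, to the right of that line, and Mdm2 at -0.59 and -0.53.

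Levels of different genes were compared as CPM per kb of counted sequence. For Bax this length includes the 181 bases shared with Gm45808, so its places below are uncertain. In ESC total RNA the order was Bax (305 ± 10.8, SD, n = 3), Mcl1 (242 ± 6.63), Mdm2 (135 ± 4.70), Trp53 (129 ± 6.35), Pmaip1 (94.8 ± 23.1), Bak1 (59.6 ± 4.94), Bcl2l1 (38.3 ± 2.82), Bbc3 (15.5 ± 1.18), Bcl2l11 (10.7 ± 0.657) and Bcl2 (0.125 ± 0.125). Mdm2 and Trp53 were the one pair of neighbours whose libraries overlapped. In EpiLC total RNA Pmaip1 came first (403 ± 34.0), overlapping with Mcl1 (356 ± 20.4), and was followed by Bax (284 ± 7.42). Bak1 (39.8 ± 9.78) and Bcl2l11 (37.7 ± 0.973) overlapped there.

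In ESC RPF Trp53 came first (524 ± 32.1), ahead of Bax (315 ± 45.3) and Mcl1 (291 ± 28.7), which overlapped. In EpiLC RPF Pmaip1 (565 ± 55.3) and Mcl1 (513 ± 80.2) led and overlapped, and Trp53 (354 ± 17.3) and Bax (348 ± 33.2) overlapped behind them. Pmaip1 thus went from the fourth place to the first, and stood above 87.2% of tested genes in ESC RPF and above 98.4% in EpiLC RPF.

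Within the guardians, Mcl1 made up most of the summed CPM per kb. Its share of Bcl2, Bcl2l1 and Mcl1 was 86.3% ± 0.657 (SD, n = 3) in ESC and 91.7% ± 1.24 in EpiLC total RNA, and 86.4% ± 1.56 and 94.1% ± 0.667 in RPF. Bcl2l1 went from 13.6% ± 0.666 to 7.17% ± 0.766 in total RNA, and Bcl2 reached 1.18% ± 0.578 in EpiLCs. The libraries of the cell types did not overlap for any of these shares.

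The guardians together summed to 0.771 ± 0.0449 of the effectors Bax and Bak1 in ESC total RNA and 1.20 ± 0.0879 in EpiLC total RNA. In RPF this ratio was 0.992, 0.927 and 0.716 in ESCs and 1.48, 1.64 and 1.07 in EpiLCs. The third replicate was the lowest of both RPF groups, and the groups did not overlap. Bax was scaled over all 534 counted bases, of which 181 are shared with Gm45808. If reads on the shared bases were not counted, Bax per kb is too low and these ratios are too high, which was not tested. The BH3-only members Bbc3, Pmaip1 and Bcl2l11, in turn, summed to 0.432 ± 0.0844 of the guardians in ESC total RNA and 1.23 ± 0.0819 in EpiLC total RNA. In RPF they summed to 0.459 ± 0.0707 and 1.28 ± 0.299. Pmaip1 was 77.9% of the BH3-only sum in ESC and 84.3% in EpiLC total RNA. These sums leave out other family genes, such as Bik, Bmf, Bad, Bid and Bok, which are described below. They describe reads, not protein, and no test was made on them.

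**Figure D4:**
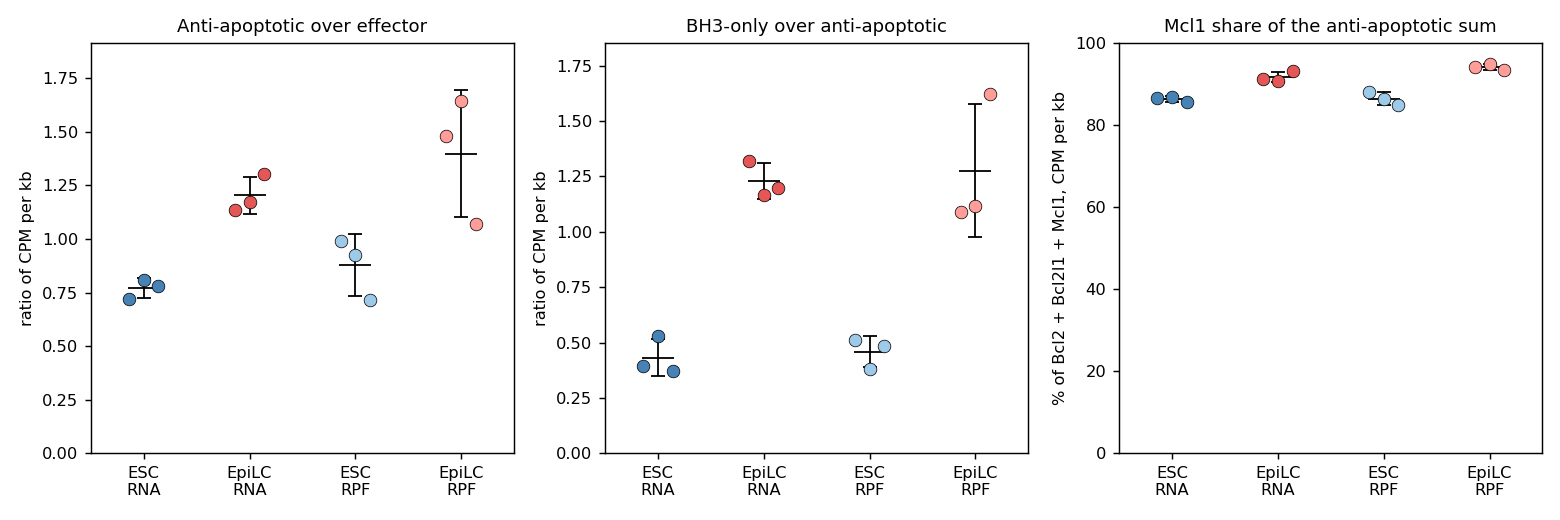
Ratios and shares of CPM per kb by library (y axes, from 0), in 4 groups of 3. Left, the sum of Bcl2, Bcl2l1 and Mcl1 over that of Bax and Bak1; middle, the sum of Bbc3, Pmaip1 and Bcl2l11 over that of the guardians; right, the share of Mcl1 among the guardians. Points are libraries and bars the mean ± SD. The EpiLC libraries lie above the ESC libraries in each panel and assay, as with 1.20 against 0.771 for the first ratio in total RNA.

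The members also differed in their promoters. RefSeq windows of 300 bases, from 250 before to 50 after a start site (GRCm38.p6), were found for 9 members. Pmaip1, the tested member with the largest rise, had none. For Bbc3 and Mcl1 no window had its last bases in the Gencode M21 transcript used for the coding sequence. GC content was 71.0% to 78.0% in the windows of Bbc3, Bcl2l11 and Bcl2, and 49.3% to 58.3% in those of Trp53, Bcl2l1 and Bak1, beside a median of 52.7% over 32851 windows. Mcl1 (65.7%) and Mdm2 (64.7%) lay between these, and Bax (57.3%) in the lower range. The GC box, GGGCGG on either strand with overlaps counted, occurred 7 times in Bcl2, 3 times in each window of Bcl2l11 and 4 to 7 times in those of Bbc3, and 0 times in Trp53, Bcl2l1 and Bak1. It also occurred 3 times in Bax and 2 times in Mdm2, which did not pass the test, and 1 time in Mcl1, which rose. It was present in 35.7% of all windows. The 80 bases before the most upstream start are shown for these 6 genes, with GC boxes in capitals. The first 2 rose and the last 3 fell, and Bcl2 was higher in EpiLCs by its counts. GC content alone does not give these 6, since Bax (57.3%) lay below Bak1 (58.3%) and is not printed. As Bax and Mdm2 show, GC boxes and direction did not go together in all members. A link between them was not tested.
Bbc3: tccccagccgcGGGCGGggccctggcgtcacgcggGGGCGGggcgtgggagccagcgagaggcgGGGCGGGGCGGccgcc
Bcl2l11: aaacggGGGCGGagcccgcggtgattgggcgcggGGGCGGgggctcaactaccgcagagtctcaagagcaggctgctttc
Bcl2: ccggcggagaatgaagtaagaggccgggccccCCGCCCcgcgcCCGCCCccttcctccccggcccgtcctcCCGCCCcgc
Trp53: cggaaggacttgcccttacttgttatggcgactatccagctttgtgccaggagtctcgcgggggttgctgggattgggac
Bcl2l1: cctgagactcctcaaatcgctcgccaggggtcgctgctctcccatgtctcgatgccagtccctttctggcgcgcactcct
Bak1: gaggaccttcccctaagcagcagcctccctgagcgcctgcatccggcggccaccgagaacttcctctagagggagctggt

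These lie at chr7:16309503-16309582 (Bbc3), chr2:128125958-128126037 (Bcl2l11), chr1:106714291-106714370 (Bcl2), chr11:69580279-69580358 (Trp53), chr2:152831729-152831808 (Bcl2l1) and chr17:27028628-27028707 (Bak1), and are printed in the direction of transcription. A match is a description of letters and not a binding site.

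Because several members are p53 genes, the windows were also searched for the p53 half-site by name. It was found in 3 of the 14 windows of members and in 8.36% of all windows. The matches, in capitals with 10 bases on each side, were 201 bases before the start of Bax, 186 before that of Mdm2 and 75 before that of Trp53, and none of the 3 windows held a second half-site.
Bax: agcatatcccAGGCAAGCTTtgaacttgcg
Mdm2: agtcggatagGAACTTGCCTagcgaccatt
Trp53: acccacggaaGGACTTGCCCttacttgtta

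Their positions are chr7:45467080-45467109, chr10:117710925-117710954 and chr11:69580274-69580303. Of these 3 genes, Trp53 fell and Bax and Mdm2 did not pass the test. No match in the window of Bbc3 says only that these letters are not in it.

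The wider pathway was read from 5 lists with 96 tested genes, of which 38 rose and 25 fell in total RNA. In RPF 35 rose, against 31.1% of all tested genes, and 30 fell, against 28.7%. Changes and counts below are of total RNA unless RPF or TE is named. The counts stand against 34.6% of all tested genes that rose and 30.7% that fell, and with the fold limit 14.6% and 9.70%. Among the 9 tested of 17 other BCL2 family genes, 5 rose and 3 fell. Bik, a BH3-only gene, rose by 2.31 ± 0.44 (adjusted p = 6.08e-05), and Bok, an effector relative of Bax, rose by 1.86 ± 0.15 (adjusted p = 5.06e-11). Bcl2l14 fell by 2.71 ± 0.36 (adjusted p = 3.21e-07). The BH3-only genes Bmf (0.79), Bad (-0.83) and Bid (-0.65) passed the test below the fold limit. In RPF Bmf rose by 1.60 ± 0.25 (adjusted p = 5.14e-06), past the fold limit. Bad (-0.63) and Bid (-0.41) again passed below that limit in RPF.

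Of 35 tested p53 targets, 17 rose and 6 fell. Tap1, a peptide transporter, rose by 2.63 ± 0.22, Perp, a desmosome protein, by 1.64 ± 0.28, and Btg2, an anti-proliferative gene, by 1.30 ± 0.13. Tigar, a regulator of glycolysis, fell by 2.06 ± 0.12, the cell cycle inhibitor Cdkn1a (p21) by 1.26 ± 0.16, and Ephx1 by 1.08 ± 0.19. These 6 were the targets past the fold limit, 3 in each direction. Among 25 p53 regulators 9 rose and 8 fell, with the methyltransferase Setd7 at 2.76 ± 0.12, the p53 relative Trp73 at 1.26 ± 0.19 and Ppp1r13b at -1.13 ± 0.15 past the fold limit.

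Of 21 apoptosome and caspase genes, 6 rose and 6 fell. Casp6 was the one past the fold limit (1.42 ± 0.15), and the scaffold Apaf1 rose by 0.76, while the initiator Casp9 fell by 0.38. Of 7 genes of MCL1 turnover, 2 rose, namely Ube2k by 1.07 ± 0.09 and Huwe1 by 0.20. The 2 that fell were Usp9x, a deubiquitinase of MCL1, by 0.73, and Btrc by 0.69. The median log2 change was 0.36 for other BCL2 family genes, 0.22 for p53 targets, 0.04 for p53 regulators, 0.08 for apoptosome and caspase genes and -0.02 for MCL1 turnover, beside 0.03 over all genes. For TE, 2 of the 96 genes passed, against 1.20% of all genes, both p53 targets and both lower in EpiLCs, namely Ccng1 (-0.72 ± 0.16, adjusted p = 0.0239) and Ccnk (-0.68 ± 0.16, adjusted p = 0.0382).

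**Figure D5:**
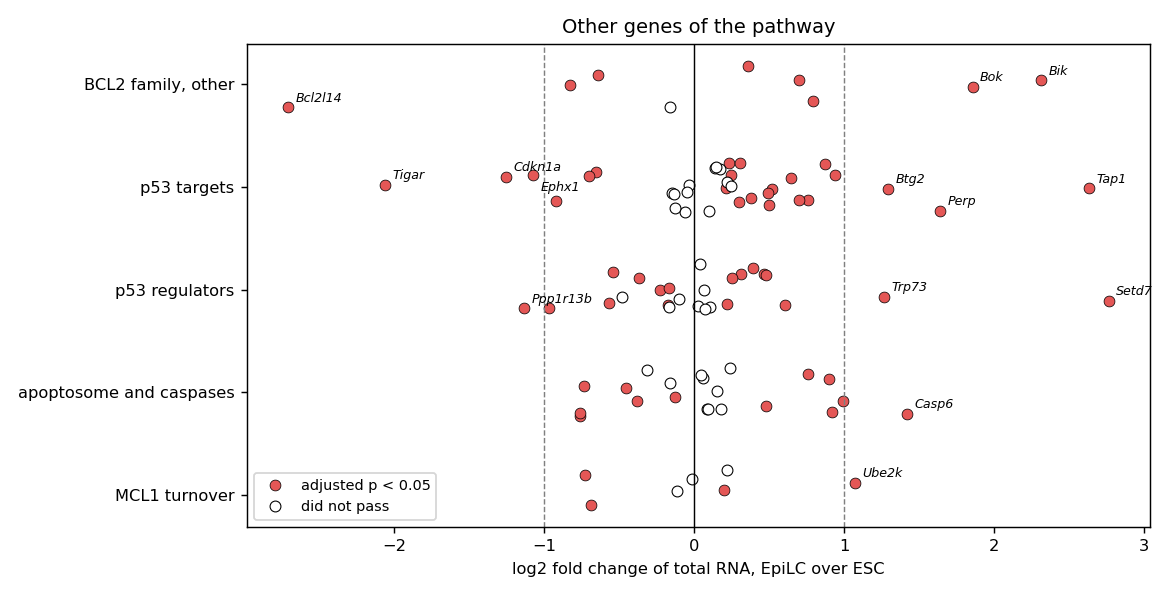
Log2 fold change of total RNA from ESC to EpiLC (x axis) for the tested genes of 5 lists (rows, with random vertical offsets). Filled points passed an adjusted p under 0.05 and dashed lines mark the fold limit of 1. Named genes are past both, from Bcl2l14 at -2.71 to Setd7 at 2.76.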

How the data were processed

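RPF and total RNA libraries (TruSeq Ribosome Profiling kit) were grouped by sample title, 3 per group. The authors deposited raw counts per gene. Per the submitters' processing notes and the study's methods, cutadapt (version 1.14) removed adapters and kept RPF reads of 26 to 32 bases, STAR (version 2.5.3a) placed reads with a single position on mm10, and featureCounts (version 1.5.3) counted sense reads over coding sequence without its first 45 bases. Treatment of PCR duplicates is not given in the sources used here.

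From the counts, genes with at least 3 CPM in at least 3 libraries were kept (11750), scaled by TMM in edgeR version 4.0.16, and fitted with voom (limma version 3.58.1, under R version 4.3.3) as 1 model with 4 groups over 12 libraries. Contrasts are EpiLC over ESC, or RPF over total RNA (TE), and p-values are 2-sided and adjusted over all tested genes. Symbols were assigned to 22385 identifiers. GC content came from Gencode M21, a later release than the one counted. Alternatives included edgeR, DESeq2 version 1.42.0, other scalings and filters, a GC correction, a replicate block and leaving out each library. The fits were tested on simulated data. Chi-square per degree of freedom between libraries of a group was 2.46 or more, beyond counting error, so none was a copy of another. This cannot tell separate cultures from separate preparations of 1 culture. The study calls its replicates biological, while the labels only number them and neither says how the cultures were separated, so p-values measure the spread between these libraries.

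The members and lists were chosen with earlier results of these data known. All 10 members are named. From each list, named genes were up to 3 rises and 3 falls of total RNA past both thresholds. Bmf, Bad, Bid, Apaf1, Casp9, Usp9x, Btrc, Huwe1, Ccng1 and Ccnk were named after their values were seen. Some genes of the lists are not reported here by name.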

Additional observations from a re-analysis of the deposited data

How the results depend on the processing

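The changes of total RNA and RPF of Trp53, Bcl2l1, Mcl1, Bak1, Bbc3, Pmaip1 and Bcl2l11 kept their direction and their side of the test under every alternative run. Counts below use both thresholds. In total RNA, and likewise in RPF, 3 members were higher in the reported fit. With the GC correction, alone or beside the replicate block, it was 2 in each assay. Without the filter on low counts it was 4 in each. Dropping the fold limit gave 3 members lower in total RNA and 3 in RPF, and 5 higher and 1 lower for TE in ESCs and in EpiLCs. TE in EpiLCs gave 1 member with the GC correction and 1 with the replicate block and GC correction. Leaving out each library gave 1 to 2 members for TE in each cell type (2 in ESCs without ESC RPF replicate 3, 1 in EpiLCs without EpiLC RPF replicate 2). Deviations of same-numbered libraries were weakly correlated (-0.17 to 0.12). Each ESC RPF library still correlated best with the EpiLC RPF library of its own number (0.039, 0.025 and 0.029). In the other comparisons the own number was not best throughout. A batch shared by RPF libraries of 1 number was not tested. With the replicate block the Mdm2 RPF change (0.19, adjusted p = 0.0321) and the Bbc3 TE in ESCs (0.66, adjusted p = 0.0117) passed.

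Reversals were of estimates that did not pass the test in the reported fit. Trp53 TE change was 0.0019 with upper-quartile factors. Bcl2l1 TE in EpiLCs was -0.10 under the GC correction, both alone and beside the replicate block. Bbc3 TE in ESCs was -0.0025 with the GC correction. Bcl2l11 TE change was 0.0039 with DESeq2, 0.068 with limma-trend and 0.0059 with at least 10 counts in every library. Its TE in ESCs was 0.032 with DESeq2, 0.019 with RLE, 0.025 with upper-quartile factors, 0.0010 with the replicate block and 0.010 with the culture block, and in EpiLCs 0.036 with DESeq2 and 0.020 with upper-quartile factors. Leaving out each library, TE change ran from -0.14 to 0.062 for Trp53, -0.049 to 0.12 for Mdm2, -0.28 to 0.090 for Bak1, -0.053 to 0.89 for Bbc3, -0.11 to 0.18 for Pmaip1 and -0.17 to 0.14 for Bcl2l11. Bax RPF change ran from -0.026 to 0.24 and its TE in ESCs from -0.0045 to 0.26. Bcl2l11 TE ran from -0.18 to 0.13 in ESCs and -0.15 to 0.069 in EpiLCs. For Bcl2 without the filter, a check added after seeing the data, TE change ran from -0.13 to 1.15 and TE in EpiLCs from -0.41 to 0.051 (0.048 without EpiLC total RNA replicate 2), and its total RNA change was 4.05 without ESC total RNA replicate 1. edgeR and DESeq2 gave Bcl2 RPF changes of 7.41 and 6.64. The cause was not tested. Depth limits Bcl2 most, with 0 ESC and 31 EpiLC counts in RPF.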
